A study of Mus musculus with 9 samples.

Results

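The 10 genes described here, Cldn5, Pecam1, Cdh5, Flt1, Kdr, Tek, Slc2a1, Mfsd2a, Abcb1a and Slco1c1, are widely used markers of endothelial cells and of the blood-brain barrier (BBB). They were chosen by symbol. The rule for choosing them used no measured difference between groups, but earlier results of these data were known at the time. All 10 were among the 35975 genes with at least 1 quantified transcript, and all 10 were among the 15340 genes tested, those above 1 CPM (counts scaled to the library total) in at least 4 libraries. RNAseq was carried out on mediobasal hypothalamus (MBH), the ventral hypothalamic region around the third ventricle, taken from wild-type C57Bl/6 male mice at P21. The 4 CTRL libraries came from litters of dams drinking plain water. The 5 Emul libraries came from litters of dams whose water held the emulsifiers carboxymethylcellulose (CMC) at 1% and polysorbate 80 (P80) at 1% before pregnancy, during gestation and during lactation. That the dams were the ones treated is read from the study's methods: the labels give each sample's treatment without naming who drank it, and their protocol also describes offspring given emulsifiers after weaning. Each library was bulk tissue of a dissected region, so it mixed vessel cells with neurons, glia and blood, and the groups carried no transgene or reporter for vessel cells.

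Endothelial cells of brain capillaries are joined by tight and adherens junctions, carry few transport vesicles and express carriers and efflux pumps, and together these features form the BBB. Their growth and survival depend on VEGF receptors and on the TIE2 receptor, and their barrier features depend on WNT signals from neighbouring cells. The MBH is unusual in that capillaries of the adjoining median eminence are fenestrated and let blood-borne hormones in, while those of the arcuate nucleus mostly keep a barrier.

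Library totals ranged from 28245360 estimated counts in CTRL 3 to 46067534 in Emul 4, and the 10 genes held between 302 and 6708 counts per library. Markers of all the vessel cell classes examined were detected. Of 7 choroid plexus genes, only 3 passed the count filter, and the list summed to between 14.6 and 18.7 TPM, the length-corrected level kallisto gives, over all libraries. All 8 tanycyte genes passed it. The myelin gene list moved with group: 5 of 6 genes were lower in Emul at an unadjusted p-value under 0.05 (8.99% of all genes were), with a summed level of 12282 to 15478 TPM in CTRL and of 9200 to 12860 TPM in Emul. Of 6 neuronal genes, 5 were higher (6.84% of all genes were), and their summed level was 2390 to 2588 TPM in CTRL and 2453 to 2610 TPM in Emul. The 5 erythroid genes, which mark blood left in vessels, had a median log2 fold change of 0.44 with 0 past that threshold. Their sum ran from 1021 to 2773 TPM in CTRL and from 1576 to 3308 TPM in Emul. The astrocyte list summed to between 1446 and 1552 TPM in CTRL and between 1219 and 1395 TPM in Emul, with no overlap. Of its 8 genes 1 was lower, Gfap, the astrocyte filament gene, with a log2 fold change of -0.40 ± 0.09 (SE), and the list median was -0.05. Summed TPM was also lower in Emul without overlap for the junction, transport, WNT, mural and basement membrane lists described below. The junction sum, for example, was 359 to 376 TPM in CTRL and 308 to 346 TPM in Emul. For the 10 genes and the VEGF, other endothelial and fenestrated lists the groups overlapped. The share of all genes without overlap in TPM was not computed, and TPM has no correction for composition. The log2 fold changes described below have one. In them the medians of the junction, transport, WNT, mural and basement membrane lists were -0.04, -0.02, -0.05, -0.003 and -0.04. Of the mural and basement membrane genes, 0 were called. The part of the shifts in list sums in the results below was not tested. In bulk tissue, fewer endothelial cells and less RNA per endothelial cell cannot be told apart.

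On the TPM scale the glucose transporter Slc2a1 was the most abundant of the 10 genes, at 100 TPM on average over the 9 libraries (87.7 to 112), followed by the lipid transporter Mfsd2a at 58.9 TPM (50.8 to 64.2). Cldn5 averaged 29.4 TPM, Slco1c1 22.1, Flt1 16.4, Abcb1a 14.8, Pecam1 11.98, Kdr 7.16, Cdh5 6.59 and Tek 5.59 TPM. The order was nearly the same in each litter. Flt1 exceeded Abcb1a in 8 of 9 libraries and Kdr exceeded Cdh5 in 7 of 9, and every other neighbouring pair kept its order in 9 of 9. Transcripts of Slc2a1 and Slco1c1 are also made by glia, so their level in bulk MBH is not that of endothelium alone.

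The comparison of Emul with CTRL asked whether maternal emulsifier consumption was accompanied by differences in these genes, and their calls did not exceed the share over all genes. At an unadjusted p-value under 0.05 in limma-voom, 1 of the 10 genes differed, Slc2a1, which was higher in Emul, while 15.8% of all tested genes were called at that threshold. After Benjamini-Hochberg adjustment 0 of 10 were called (0.117% of all genes), with adjusted p-values from 0.20 to 0.97, and 0 passed the cutoff that adds a fold change above 1.5 (0.469% of all genes). No gene of the 10 had CTRL and Emul libraries without overlap, against 6.6% of all genes (2.8% higher and 3.8% lower in Emul). The median log2 fold change of Emul over CTRL was -0.03 for the 10 genes and 0.00 for all genes tested, with 4 of the 10 above 0 and 6 below. The 95% intervals of all 10 lay between -0.35 and 0.27 on the log2 scale, that is between 21.4% lower and 20.9% higher in Emul.

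**Figure D1:**
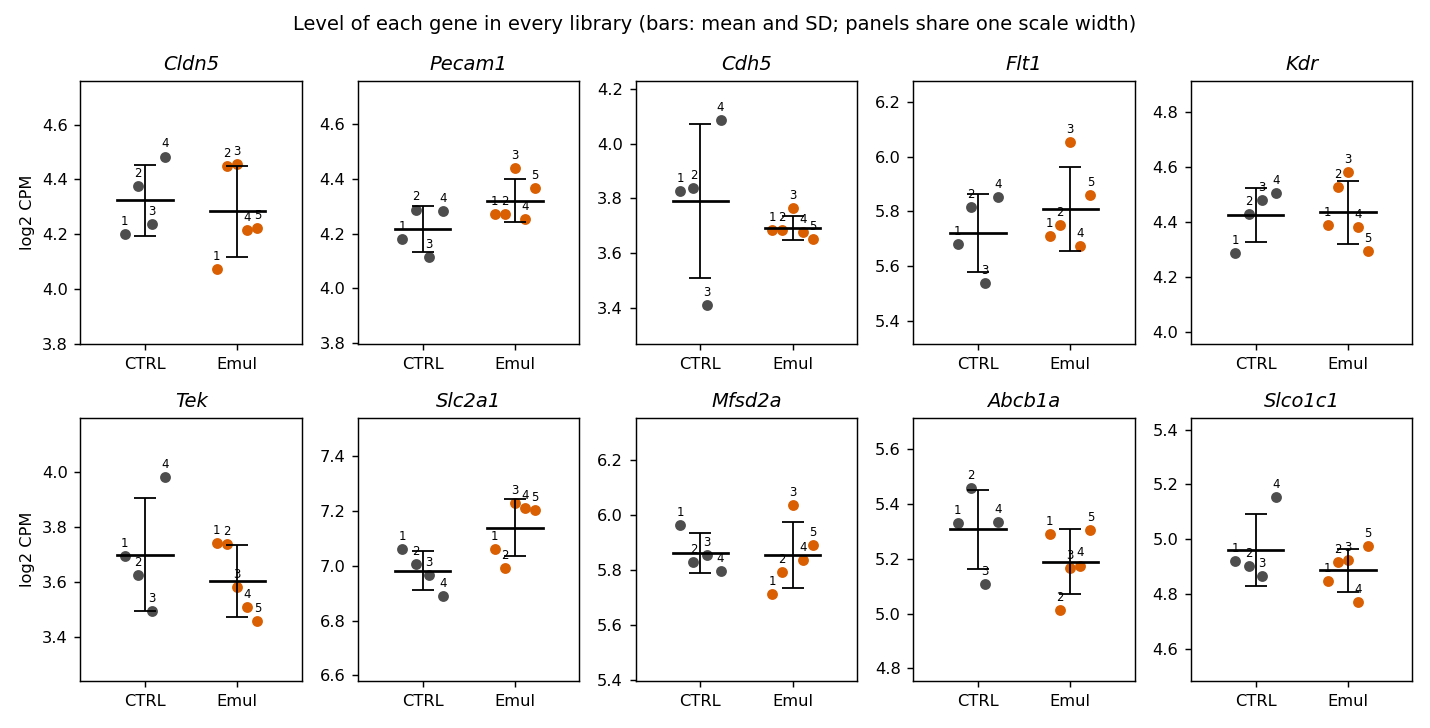
Level of each of the 10 genes in every library on the log2 CPM scale, with CTRL in grey and Emul in orange, replicate numbers beside the points, and the mean and SD of each group in black. All panels span the same number of log2 units, and the CTRL and Emul points overlap in each of them.

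Among the junction genes, Cldn5, Cdh5 and Pecam1, none passed the test. Cldn5 (chr16:18776847-18778262 in GRCm38, plus strand) encodes claudin 5, the main tight junction claudin of brain endothelium. Its log2 CPM was 4.20, 4.38, 4.24 and 4.48 in CTRL 1 to 4 and 4.07, 4.45, 4.46, 4.22 and 4.22 in Emul 1 to 5. Emul 1 was the lowest library and CTRL 4 the highest, and the others were interleaved. The groups averaged 4.32 ± 0.13 (SD) and 4.28 ± 0.17, with a log2 fold change of -0.05 ± 0.09 (SE) and an adjusted p-value of 0.82 in limma-voom.

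Cdh5 (chr8:104101625-104144511, plus strand) encodes VE-cadherin, the adherens junction cadherin of endothelium. Its log2 CPM was 3.83, 3.84, 3.41 and 4.09 in CTRL and 3.69, 3.68, 3.77, 3.68 and 3.65 in Emul. The 5 Emul litters lay close together, between CTRL 3 at the bottom and the other CTRL litters at the top. The SD was 0.28 in CTRL and 0.04 in Emul, where counting error alone would give about 0.06. The log2 fold change was -0.13 ± 0.10 (SE; limma-voom, adjusted p-value 0.56). It rested on the CTRL extremes: without CTRL 3 it was -0.23 with an unadjusted p-value of 0.0071, and without CTRL 4 it was -0.03. An antisense gene, Gm29682, which was not among the quantified transcripts, overlaps 4249 bases of the Cdh5 span.

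Pecam1 (chr11:106654217-106750628, minus strand) encodes CD31, an adhesion receptor at endothelial contacts. Its log2 CPM was 4.18, 4.29, 4.11 and 4.28 in CTRL and 4.27, 4.27, 4.44, 4.25 and 4.36 in Emul. Emul 3 and Emul 5 stood above every CTRL library, and the other Emul libraries fell within the CTRL range. The log2 fold change was 0.09 ± 0.06 (SE; limma-voom, adjusted p-value 0.45). The 3 main Pecam1 transcripts, Pecam1-204, Pecam1-202 and Pecam1-203, encode 727, 716 and 697 residues and differ at the end of the coding region, which specifies the cytoplasmic tail. That end is shown because the transcripts part there (GRCm38, chr11:106655133-106679578 for Pecam1-204 and chr11:106655143-106679578 for the others, minus strand, spliced). Capitals mark the cassette exons, of 57 and 23 bases in Pecam1-204 and of 57 bases in Pecam1-202, which Pecam1-203 skips.
Pecam1-204: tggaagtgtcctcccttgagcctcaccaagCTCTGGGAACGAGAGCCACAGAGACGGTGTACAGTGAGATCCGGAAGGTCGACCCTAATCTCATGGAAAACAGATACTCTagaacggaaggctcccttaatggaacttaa
Pecam1-202: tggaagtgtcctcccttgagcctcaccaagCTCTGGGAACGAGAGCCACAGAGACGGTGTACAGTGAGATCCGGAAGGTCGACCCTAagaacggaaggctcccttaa
Pecam1-203: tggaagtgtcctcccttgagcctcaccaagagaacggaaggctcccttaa

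The receptor genes Flt1, Kdr and Tek did not pass the test either. Kdr (chr5:75932827-75978458, minus strand) encodes VEGFR2, the main signalling receptor for VEGF-A. Its log2 CPM was 4.29, 4.43, 4.48 and 4.51 in CTRL and 4.39, 4.53, 4.58, 4.38 and 4.30 in Emul. Both groups covered nearly the same range. Emul over CTRL gave a log2 fold change of 0.01 ± 0.07 (SE; limma-voom, adjusted p-value 0.96), with a 95% interval from -0.13 to 0.15.

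Tek (chr4:94739289-94874976, plus strand) encodes TIE2, the angiopoietin receptor, and had the lowest level of the 10 genes. Over CTRL 1 to 4, log2 CPM was 3.69, 3.62, 3.49 and 3.98, and over Emul 1 to 5 it was 3.74, 3.74, 3.58, 3.51 and 3.45. CTRL 4 was the highest library and Emul 5 the lowest, with the rest mixed. Emul over CTRL gave a log2 fold change of -0.11 ± 0.10 (SE; limma-voom, adjusted p-value 0.61).

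Flt1 (chr5:147561604-147726011, minus strand) encodes VEGFR1, which binds VEGF-A tightly and signals weakly. CTRL libraries held a log2 CPM of 5.68, 5.82, 5.54 and 5.85, and Emul libraries one of 5.71, 5.75, 6.05, 5.67 and 5.86. Emul 3 was the highest library and CTRL 3 the lowest. The log2 fold change was 0.08 ± 0.08 (SE; limma-voom, adjusted p-value 0.68), and it was 0.02 without Emul 3. Flt1 makes a full-length receptor of 1333 residues from 30 exons, Flt1-202, and a short form of 688 residues from 13 exons, Flt1-203. The short form lacks the membrane-spanning and kinase parts, and secreted forms of this kind trap VEGF outside the cell. The point where the transcripts part is shown because it separates receptor from trap (GRCm38, minus strand, chr5:147639130-147639254 for Flt1-203, and exons within chr5:147634429-147639254 for Flt1-202). Lower case marks the last shared bases, and capitals mark the bases that differ, which in Flt1-203 run on into the intron as far as its stop codon.
Flt1-202: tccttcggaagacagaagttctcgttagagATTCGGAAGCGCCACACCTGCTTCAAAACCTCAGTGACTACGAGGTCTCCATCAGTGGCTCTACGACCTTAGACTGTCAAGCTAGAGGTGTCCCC
Flt1-203: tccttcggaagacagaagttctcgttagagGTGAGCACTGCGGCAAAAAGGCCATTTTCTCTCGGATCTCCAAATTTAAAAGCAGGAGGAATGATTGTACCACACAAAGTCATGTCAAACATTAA

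Among the transporter genes, Slc2a1 was higher in Emul, and Mfsd2a, Abcb1a and Slco1c1 did not pass the test. Slc2a1 (chr4:119108711-119137983, plus strand) encodes GLUT1, which carries glucose across the BBB. Its log2 CPM was 7.06, 7.01, 6.97 and 6.89 in CTRL and 7.06, 6.99, 7.23, 7.21 and 7.20 in Emul. Emul 3, 4 and 5 were above every CTRL library, while Emul 1 matched the highest CTRL library and Emul 2 lay within the CTRL range. The groups averaged 6.98 ± 0.07 (SD) and 7.14 ± 0.11. The log2 fold change was 0.16 ± 0.05 (SE), or 11.5% higher with a 95% interval of 2.93% to 20.9%, with an unadjusted p-value of 0.012 and an adjusted p-value of 0.20 in limma-voom. The exact permutation test of the litters' log2 CPM gave p = 0.063. Slc2a1 was higher in 21 of 21 alternative analyses (log2 0.13 to 0.19) and had an unadjusted p-value under 0.05 in 20 of them, and its adjusted p-value ranged from 0.084 to 0.41 over them. With the replicate number as a block, which paired libraries by number only, the log2 fold change was 0.14 and the unadjusted p-value 0.052. The antisense genes Gm12867 and Gm12868 overlap 710 and 4235 bases of the Slc2a1 span and were not among the quantified transcripts. The kit kept strand, but whether kallisto used it is not given in the sources used here.

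Mfsd2a (chr4:122946850-122961188, minus strand) encodes the carrier of lysophospholipids with docosahexaenoic acid that also keeps transcytosis low at the BBB. On the log2 CPM scale it was at 5.96, 5.83, 5.85 and 5.80 in CTRL and 5.71, 5.79, 6.04, 5.84 and 5.89 in Emul. Both the lowest and the highest libraries were Emul. Emul over CTRL gave a log2 fold change of -0.01 ± 0.06 (SE; limma-voom, adjusted p-value 0.97), with a 95% interval from -0.14 to 0.12.

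Abcb1a (chr5:8660077-8748575, plus strand) encodes P-glycoprotein, which pumps drugs and lipophilic compounds back into blood. CTRL libraries stood at a log2 CPM of 5.33, 5.46, 5.11 and 5.33, and Emul libraries at 5.29, 5.01, 5.17, 5.18 and 5.30. All 5 Emul libraries were below 3 of the 4 CTRL libraries, and CTRL 3 was below all but Emul 2. The log2 fold change was -0.13 ± 0.07 (SE; limma-voom, unadjusted p-value 0.093, adjusted p-value 0.40). Without CTRL 3 it was -0.19 (unadjusted p-value 0.014), and on total counts without TMM scaling it was -0.16 (unadjusted p-value 0.041). Its related neighbour Abcb1b was at a log2 CPM of 1.94 ± 0.13 (SD) in CTRL and 2.03 ± 0.15 in Emul, with a log2 fold change of 0.08 ± 0.11 (SE). How far Abcb1a and Abcb1b share reads was not measured. Gm42686 on the opposite strand and Gm42684 on the same strand overlap 4108 and 3615 bases of the Abcb1a span. They were not among the quantified transcripts.

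Slco1c1 (chr6:141524368-141570177, plus strand) encodes OATP1C1, a carrier of thyroxine at the BBB and in astrocytes. On the log2 CPM scale it was at 4.92, 4.90, 4.87 and 5.15 in CTRL and 4.85, 4.92, 4.92, 4.77 and 4.98 in Emul. CTRL 4 was the highest library, and the other CTRL libraries were inside the Emul range. Emul over CTRL gave a log2 fold change of -0.08 ± 0.06 (SE; limma-voom, adjusted p-value 0.54), and it was -0.01 without CTRL 4.

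**Figure D2:**
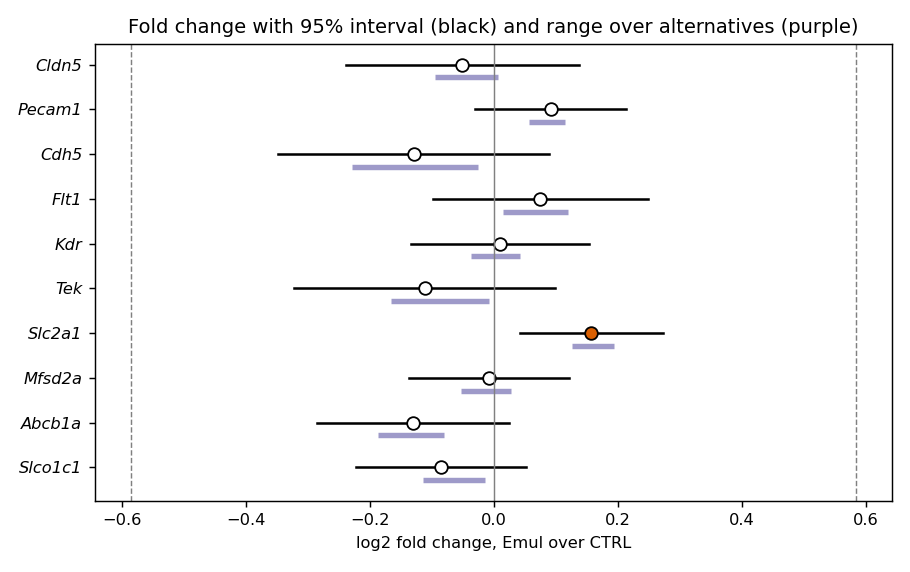
Log2 fold change of Emul over CTRL for the 10 genes (circles, orange where the unadjusted p-value was under 0.05) with 95% intervals from limma-voom (black lines), the range over 21 alternative analyses (purple lines) and the 1.5-fold cutoff (dashed). All 10 intervals lie inside the cutoff, and only that of Slc2a1 excludes 0.

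The direction of 7 of the 10 genes was the same in all 21 alternative analyses, and Cldn5, Kdr and Mfsd2a, whose fold changes were nearest to 0, changed sign in some. On the TPM scale, which has no correction for composition, 9 of the 10 group means were lower in Emul and only that of Slc2a1 was higher. On total counts without TMM, 3 were higher and 7 lower.

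Transcript shares asked whether the mix of isoforms within each gene differed. For 5 genes, Cldn5, Cdh5, Kdr, Mfsd2a and Abcb1a, a single transcript held over 95% of the estimated counts in each library. Of 20 shares tested in 9 genes, 3 had an exact permutation p-value under 0.05, in Slc2a1 and Slco1c1, while 7.97% of all transcript shares did. The lowest adjusted p-value among the 20 was 0.49, adjusted over all shares.

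Slc2a1 had 2 main transcripts. Slc2a1-201 encodes the full protein of 492 residues, and Slc2a1-204 is annotated as a target of nonsense-mediated decay, with a reading frame of 173 residues. Slc2a1-204 skips an exon, which shifts the frame into a stop codon.

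Slc2a1-201 held 60.7%, 60.3%, 63.8% and 57.6% of Slc2a1 counts in CTRL and 57.3%, 56.7%, 58.6%, 58.3% and 52.4% in Emul. Only CTRL 4 fell among the Emul values. The means were 60.6% ± 2.53 (SD, n = 4) and 56.6% ± 2.49 (n = 5), a difference of -3.94 percentage points (exact permutation test, p = 0.040). Slc2a1-204 held 38.9% ± 2.58 and 42.5% ± 2.32 (exact permutation test, p = 0.056). By level, Slc2a1-204 averaged a log2 CPM of 5.62 ± 0.10 in CTRL and 5.90 ± 0.13 in Emul, a difference of 0.29 (exact permutation test, p = 0.016), and Slc2a1-201 averaged 6.26 ± 0.11 and 6.32 ± 0.12, a difference of 0.06 (exact permutation test, p = 0.48). The gene-level difference thus lay mostly in the counts assigned to Slc2a1-204. The transcripts also differ at both ends, so the share is not a measure of exon skipping alone, and the share of Slc2a1-201 lost its call when any of 8 libraries was left out. By level, 14.4% of all genes had an exact permutation p-value under 0.05 on log2 CPM. The same percentage over single transcripts was not computed, and the p-values by level are not adjusted.

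Slco1c1 counts were spread mainly over 5 transcripts. The largest, Slco1c1-202, is annotated as a target of nonsense-mediated decay and held 59.3% ± 7.37 in CTRL and 61.2% ± 4.25 in Emul (exact permutation test, p = 0.69). The protein-coding Slco1c1-201 held 11.2% to 41.7% over all libraries. It differs from Slco1c1-202 by 41 bases at the start of exon 11 and by 457 bases at the 3' end. How far the split of counts between them depends on the annotated end was not tested. Slco1c1-204, a retained intron with 20.6 to 71.5 counts per library, held 2.32%, 2.30%, 2.48% and 3.81% in CTRL and 6.30%, 4.17%, 4.60%, 4.83% and 5.75% in Emul. Every Emul library was above every CTRL library, which 3.09% of all transcript shares also showed in either direction. The difference was 2.40 percentage points (exact permutation test, p = 0.0079, below which 4 against 5 libraries cannot go), and it stayed under 0.05 with each library left out. The protein-coding Slco1c1-206 held 13.3% ± 4.34 in CTRL and 7.04% ± 2.99 in Emul (exact permutation test, p = 0.048), with 27.8 to 254 counts per library, and it lost its call when any library but CTRL 3 was left out.

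The short form Flt1-203 held 40.3%, 37.3%, 42.0% and 35.4% of Flt1 counts in CTRL and 36.6%, 40.5%, 45.4%, 40.8% and 39.6% in Emul. Emul 3 had the highest share and CTRL 4 the lowest, with the rest mixed. The difference was 1.79 percentage points (exact permutation test, p = 0.45). In TPM, the ratio of the short form to the full-length form was 0.712 ± 0.087 (SD, n = 4) in CTRL and 0.768 ± 0.102 (n = 5) in Emul (exact permutation test, p = 0.44). The estimated shares of the Pecam1 tail variants shown above varied more between libraries than between groups: Pecam1-202 ranged from 24.0% to 47.2%, Pecam1-203 from 21.1% to 44.1% and Pecam1-204 from 20.7% to 34.7% over the 9 libraries, with exact permutation p-values of 0.47, 0.44 and 0.59. How far the assignment of reads between such similar transcripts adds to this spread was not tested. Tek was split between Tek-203, at 37.5% to 73.9%, Tek-201, at 20.7% to 47.3%, and Tek-202, at 0% to 19.4%, with exact permutation p-values from 0.98 to 0.99.

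**Figure D3:**
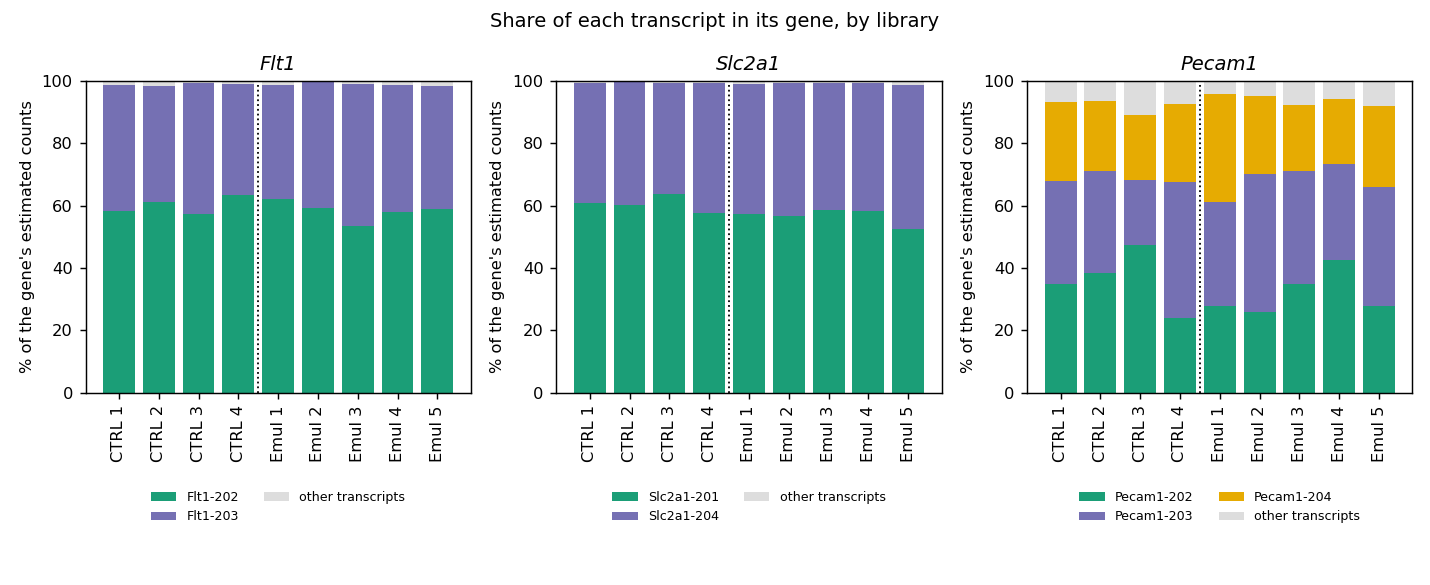
Percent of the estimated counts of Flt1, Slc2a1 and Pecam1 assigned to each main transcript (stacked bars, 1 bar per library, CTRL left of the dotted line and Emul right). The share of Slc2a1-201 is 57.6% to 63.8% in CTRL and 52.4% to 58.6% in Emul, while the shares of Flt1 and Pecam1 transcripts are mixed between the groups.

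Each gene was also expressed relative to the mean log2 CPM of the other 9 genes in the same library, so that an amount of vessel common to all of them cancels. Slc2a1 and Slco1c1 are also made by glia, so a change in vessel amount need not shift them by as much as the others. Pecam1 was the only gene of the 10 with an exact permutation p-value under 0.05 on this scale (6.63% of all genes, set against the mean of the 10). Its relative level was -0.81, -0.74, -0.77 and -0.84 in CTRL and -0.67, -0.71, -0.65, -0.68 and -0.62 in Emul. The groups did not overlap, as was the case for 2.39% of all genes. The means were -0.79 ± 0.04 (SD, n = 4) and -0.67 ± 0.04 (n = 5), a difference of 0.12 (exact permutation test, p = 0.0079). The difference fell to 0.08 on the TPM scale (p = 0.10), to 0.07 in the authors' log2 CPM table (p = 0.095) and to 0.08 against a list of other endothelial genes (p = 0.11), all by exact permutation tests. Slc2a1 was 0.18 higher relative to the other 9 genes (exact permutation test, p = 0.079), and 0.21 higher on the TPM scale (exact permutation test, p = 0.032). For the other 8 genes the exact permutation p-values were 0.13 or more.

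Of the rest of the vessel, 8 lists with 143 genes were examined, of which 137 were tested. In them, 3 genes were higher and 9 lower at an unadjusted p-value under 0.05, which is 8.76% of the genes against 15.8% of all genes. By direction this was 2.19% against 6.84% of all genes higher and 6.57% against 8.99% lower. After adjustment 0 were called, the lowest adjusted p-value being 0.14, and the median log2 fold change was -0.01. The groups did not overlap for 3 of the 137 genes, or 2.19%, against 6.6% of all genes. On total counts without TMM, 26 genes were called, 24 of them lower.

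In the junction list, 3 of 14 genes were lower and none higher, with a list median of -0.04. Among them were Jam3, a junctional adhesion molecule, at -0.23 ± 0.06 (log2 fold change ± SE), and Cgn, the tight junction plaque protein cingulin, at -0.31 ± 0.09. Cgn was at a log2 CPM of 4.54 to 4.58 in CTRL and of 3.99 to 4.51 in Emul, with no overlap. Ocln, which encodes occludin, was at -0.08 ± 0.08. These genes are also expressed outside endothelium, Jam3 in oligodendrocytes among others. Whether their levels are linked to that of the myelin list, which was also lower in Emul, was not tested.

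In the VEGF, TIE and NOTCH list, 1 of 21 genes was lower, Notch1, at -0.13 ± 0.06, which was called in 13 of 21 alternative analyses, and the list median was 0.01. Vegfa, the ligand of Flt1 and Kdr, was at 0.04 ± 0.07. In the transport list, 3 of 21 genes were lower and none higher, with a median of -0.02. Slco1a4, an organic anion carrier of the BBB, was at -0.25 ± 0.08, Slc16a1, the lactate and ketone carrier MCT1, at -0.26 ± 0.09, and Slc38a3, a glutamine carrier also made by astrocytes, at -0.13 ± 0.04. Abcg2, the efflux pump BCRP, was at 0.05 ± 0.06. Slco1a4 was at a log2 CPM of 5.79, 6.00, 5.56 and 6.00 in CTRL and 5.63, 5.68, 5.61, 5.66 and 5.41 in Emul, so CTRL 3 fell inside the Emul range.

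In the list of other endothelial genes, 2 of 34 were higher and 1 was lower, with a median of 0.01. Sox18, a transcription factor of endothelial cells, was at 0.43 ± 0.12, the highest value in the 8 lists. It was at a log2 CPM of 1.56, 1.60, 1.74 and 1.24 in CTRL and 1.74, 2.09, 1.87, 1.99 and 2.01 in Emul, so only CTRL 3 and Emul 1 met. Cav2, a caveolin, was at 0.18 ± 0.07 (called in 17 of 21) and Cxcl12, a chemokine, at -0.14 ± 0.05. The transcription factor Erg was at -0.09 ± 0.11. In the WNT list, 1 of 16 genes was lower, the list median was -0.05, and the ligand Wnt7a was at -0.20 ± 0.11.

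Of 10 genes of fenestrated or activated endothelium, 5 were tested and 1 was higher, Plvap, which encodes the diaphragm protein of fenestrated capillaries. It was at a log2 CPM of 3.36 to 3.47 in CTRL and of 3.49 to 3.70 in Emul. The groups did not overlap, the log2 fold change was 0.15 ± 0.06 (limma-voom, adjusted p-value 0.26), and it was called in 15 of 21 alternative analyses. The 5 genes that did not pass the count filter were Gpihbp1, Lcn2, Ch25h and the selectin genes Selp and Sele. The leukocyte adhesion molecules Vcam1 and Icam1 passed it and were not called, at 0.12 ± 0.08 and -0.15 ± 0.15. Of 14 tested mural cell genes and 12 basement membrane genes, 0 were called (limma-voom, unadjusted p-value under 0.05). Pdgfrb, the pericyte receptor, was at -0.11 ± 0.06, and Col4a1, a basement membrane collagen, at -0.04 ± 0.05.

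**Figure D4:**
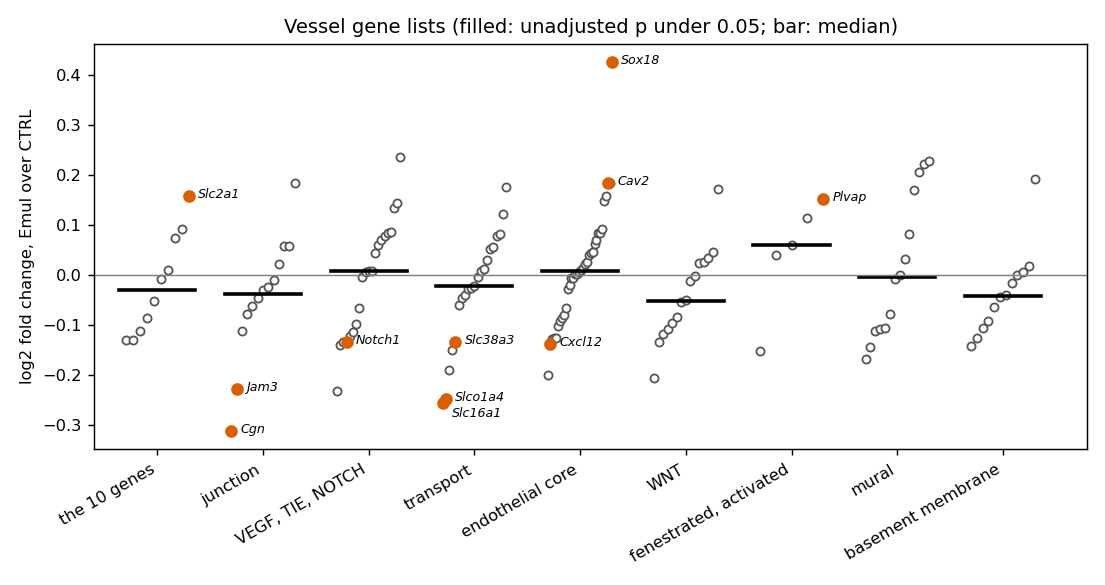
Log2 fold change of Emul over CTRL (vertical axis) for the 10 genes and for 135 of 137 tested genes of the 8 other vessel lists, with list medians as bars and genes with an unadjusted p-value under 0.05 filled and named. The medians, over whole lists, lie between -0.05 and 0.06, and 10 of the 12 called genes of the other lists are drawn.

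Covariation of the 10 genes over the 9 libraries was described with Pearson's r on log2 CPM. The libraries share their normalization, and both groups are pooled. Over 45 pairs the median r was 0.25, with 11 pairs above 0.5 and 11 below 0. Flt1 and Pecam1 were closest, with r = 0.94. Cdh5 and Tek had r = 0.76, Cldn5 and Kdr 0.74, Slco1c1 and Cdh5 0.69, Abcb1a and Cdh5 0.56, Slc2a1 and Pecam1 0.56, and Mfsd2a and Slc2a1 0.52. The lowest value was -0.68, for Tek and Slc2a1. The mean of the 10 centred levels was highest in CTRL 4 (0.11 log2 units), followed by Emul 3 (0.10), and lowest in CTRL 3 (-0.12), the library of lowest total. Flt1 followed that mean with r = 0.88, Cdh5 with 0.84, Cldn5 with 0.73, Slco1c1 with 0.71 and Pecam1 with 0.70, whereas Slc2a1 had r = -0.02. Each gene is itself part of that mean.

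The 10 other genes closest to the mean of the 10 were Cast, Ngfr, St6gal2, A930009A15Rik, Tmc3, Fdft1, Anxa6, Skida1, Asb2 and Def6, with r from 0.95 to 0.89, and 0 of them were in the vessel lists. The closest vessel gene was Nrp1, the VEGF co-receptor, at rank 11 with r = 0.89.

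**Figure D5:**
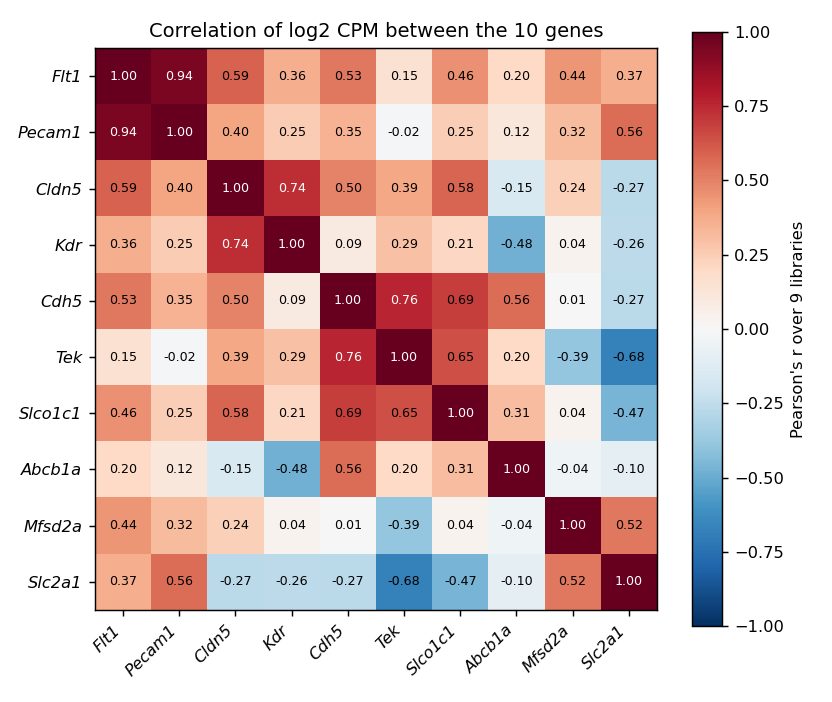
Pearson's r of log2 CPM over the 9 libraries for each pair of the 10 genes, from -1 (blue) to 1 (red), with the value in each cell. Flt1 and Pecam1 have the highest value (0.94), and Slc2a1 and Tek the lowest (-0.68).

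Promoter sequence was given for 8 of the 10 genes in RefSeq (GRCm38.p6), and not for Pecam1 and Cdh5. The entry for Abcb1a lies 92986 bases upstream of the start of the quantified gene and was left out. For the other 7, the 250 bases before each start were searched on both strands for short motifs of factors that act in endothelium. The core CGGAAG or AGGAAG of ETS factors was found in 2 of 7 (Flt1 and Slco1c1) and in 39.2% of 32851 promoters of the same length. The WNT effector motif CTTTGAT of TCF and LEF factors was found in 0 of 7 (3.21% of promoters), the FOX motif GTAAACA in 0 of 7 (3.17%) and the TATA box TATAAA in Flt1 (12.4%). The Flt1 promoter is shown because it alone of the 7 held the ETS core at 2 places, in capitals (chr5:147726012-147726261, minus strand).
Flt1: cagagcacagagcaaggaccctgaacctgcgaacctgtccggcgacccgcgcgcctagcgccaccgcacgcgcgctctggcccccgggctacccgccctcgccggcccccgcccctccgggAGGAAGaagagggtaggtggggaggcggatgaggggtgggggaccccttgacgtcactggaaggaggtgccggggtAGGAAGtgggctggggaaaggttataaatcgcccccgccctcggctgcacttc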

How the data were processed

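RNA of 9 MBH samples was made into stranded mRNA libraries and sequenced in paired-end mode. Per the labels, the authors used FastQC 0.11.9, kallisto 0.46.1 and edgeR 3.40.1 with mm10. The authors deposited kallisto's estimated counts, which are not normalized, with TPM values and effective lengths, for 119414 transcripts per library. They also deposited a log2 CPM table of genes, used here as an alternative only, and how it was summed per gene is not given in the sources used here. No column was left out for want of a sample.

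Transcripts were matched by Ensembl ID to GENCODE M21 (GRCm38, the same assembly as mm10). Of them 97.8% matched, and the 1.20% to 1.27% of counts on the others were left out. Estimated counts were summed per gene, the filter kept genes above 1 CPM in 4 or more libraries, and the groups were compared by limma-voom (limma 3.58.1, edgeR 4.0.16, R 4.3.3) with TMM and Benjamini-Hochberg adjustment over 15340 genes. Calls used an unadjusted p-value under 0.05, and the cutoff of the study's methods adds a fold change above 1.5. Log2 CPM values used a prior count of 2. Single values were compared by two-sided exact permutation tests (smallest p 0.0079), in Python 3.11.15. A transcript share was tested where it reached 5% in at least 1 library. Counts were rounded for edgeR and DESeq2 (1.42.0) only. Scripts were tested on simulated data.

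Genes and lists were chosen with earlier results of these data known. Named are the 10 genes, the first gene of each other list, up to 2 called genes per list and direction with the smallest p-values, the 10 genes most like the mean of the 10, and the closest of the 10 to each. Slc16a1, Abcb1b, Nrp1, Vcam1, Icam1 and genes under the count filter were named after their values were seen. For 2 called list genes and part of Slc2a1, values or sequence are not reported here. Replicates are separate litters. Replicate numbers were not treated as pairs: deviations of same-numbered libraries correlated between -0.16 and 0.02. Whether such libraries shared a preparation is not given in the sources used here. Alternatives were other tools, scalings and filters, the authors' table, the replicate block and each library left out. No batch is given. Columns of the authors' own comparisons were not used.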

Additional observations from a re-analysis of the deposited data

Results flagged for a closer look

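Within groups, 143 sets of values of 4 or 5 libraries were searched for a library far from the others (a gap to its nearest neighbour above 0.829 of the range for 4 libraries or 0.71 for 5). Chance alone would mark about 1 in 20 sets, or 7.15, and 9 were found. In Slco1c1, the share of Slco1c1-201 was 41.7% in CTRL 3 against 11.2% to 16.2% in the other CTRL libraries, that of Slco1c1-202 was 68.6% in Emul 5 against 58.0% to 59.9%, and that of the retained intron Slco1c1-204 was 3.81% in CTRL 4 against 2.30% to 2.48%. The share of Abcb1a-201 was 99.3% in CTRL 4 against 100% in the other CTRL libraries. As those were tied at 100%, a lower value of any size would have been marked. Among other vessel genes, the log2 CPM of Cgn was 4.54 in CTRL 1 against 4.58 in the other CTRL libraries, and that of Abcg2 was 4.20 in CTRL 3 against 4.31 to 4.32. In Emul 5, the log2 CPM of Slco1a4 was 5.41 against 5.61 to 5.68 in the other Emul libraries, and that of Wnt7a was 3.06 against 2.68 to 2.78. The summed level of the astrocyte list was 1552 TPM in CTRL 3 against 1446 to 1451 TPM in the other CTRL libraries. None of the gene-level values of the 10 genes was marked.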

How the results depend on the processing

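Over 21 alternative analyses of each of the 10 genes, 206 of 210 values stayed on the same side of the unadjusted threshold, 1 lost its call, 3 gained one and 0 called values reversed. The number of the 10 genes called, 1 in the analysis reported, was 2 on total counts without TMM (Slc2a1 and Abcb1a) and 0 with the replicate block (Slc2a1 at log2 0.14, unadjusted p-value 0.052), and 1 to 3 with a library left out, 3 being without CTRL 3 (Slc2a1, Cdh5 and Abcb1a). The replicate numbers were taken as names only: 0 of the CTRL libraries was closest to its own number, and the block leaves Emul 5 without a partner. The 12 calls in the other vessel lists became 26 without TMM, 20 with counts scaled from TPM by length (16 lower) and 14 with the replicate block, and 10 to 21 with a library left out, 21 being without Emul 3 (18 lower). The 3 called transcript shares became 1 to 3 with a library left out. The 1 gene called relative to the other 9 became 0 against the endothelial list and 1 to 2 with a library left out, 2 being without CTRL 3 or without Emul 2. Of 588 values of named list genes, 540 kept their side, 32 lost a call and 16 gained one. Over all genes, the 72 past the cutoff became 687 without a count filter and 186 with filterByExpr, and the 18 at an adjusted p-value under 0.05 became 339 with DESeq2, 60 without TMM, 36 with sample quality weights, 33 with edgeR, 10 with median-of-ratios size factors or filterByExpr, 8 with limma-trend, 6 with mitochondrial genes left out or counts scaled by length, 5 without a count filter or from the authors' log2 CPM table, 1 with the replicate block, and 0 to 24 with a library left out. The cause of these changes was not tested. With 4 and 5 litters, the 95% intervals of the 10 genes reached 21.4% lower and 20.9% higher, and differences inside them are not resolved. Effects of a small vessel population inside bulk MBH, such as the median eminence, are not resolved.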
